A study of Mus musculus with 18 samples.

Results

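Medium polysomes were compared with the lysate they came from in mouse brain slices treated with homoharringtonine (HHT). The comparison used 8 of the 18 libraries, chosen by their labels and paired by lysate, meaning the same genotype and replicate number. They were KO HHT medium and WT HHT medium, with 2 libraries each, against KO HHT input and WT HHT input, again with 2 each. Every group held slices of hippocampus and cortex from male C57BL/6N mice at postnatal day 28 to 35, either Fmr1 KO or wild type (WT), exposed to 20 µM HHT for 30 min. A lysate pooled 10 slices from 2 or 3 mice. Input was a saved part of the cleared lysate, and medium and heavy polysomes were pools of sucrose gradient fractions whose borders were set by immunoblot for FMRP, the protein that Fmr1 encodes, so a pool is not defined by a number of ribosomes. Vehicle slices received DMSO in place of HHT and gave 1 lysate per genotype. A slice holds every cell type of the tissue, and in such bulk samples fewer cells of a type cannot be told apart from less RNA per cell.

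An mRNA that carries several ribosomes moves down a sucrose gradient as a polysome, and the more ribosomes it carries the further it moves. Homoharringtonine binds free large ribosomal subunits and stops a ribosome soon after it has joined the start codon, while ribosomes already past that point go on and run off. The mRNA left on polysomes after the drug therefore depends on how ribosomes were moving as well as on how many were loaded, and HHT run-off is widely used to follow elongation. In brain, FMRP binds many long mRNAs of synaptic and chromatin proteins and is known as a brake on their translation.

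Totals ran from 9629486 to 10897729 estimated counts in HHT medium libraries and from 6298975 to 13834652 in HHT input libraries, the lowest being WT HHT input 2. Fmr1 stood at 4.62 to 8.53 CPM (a gene's share of its library's counts, scaled alike in all libraries) over all KO libraries and at 13.9 to 32.2 CPM over all WT libraries. Pyramidal neuron markers summed to between 9400 and 10700 CPM in medium and between 8290 and 10700 CPM in input. CPM are shares of a library's RNA, each library was made from 200 ng, and a rise in medium is a rise in share. The lysates numbered 2 moved further from 0 than those numbered 1 in many groups below, in both genotypes, so values are given per lysate, and what sets these lysates apart was not tested.

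Medium and input differed widely after HHT. In a fit of the 12 HHT libraries with a term for each lysate, 2593 of 13968 genes (18.6%) were higher in medium and 2908 (20.8%) were lower, by edgeR's quasi-likelihood test at a Benjamini-Hochberg adjusted p of 0.05. With total counts in place of TMM scaling 2003 were higher and 3427 lower, so that 36.9% of the calls were higher, against 47.1% with TMM. The median change was 0.43 on the log2 scale among genes called higher and -0.56 among genes called lower, and the median standard error was 0.12. Changes beyond a doubling were 14 among the rises and 304 among the falls. Across genes, the log2 ratios of any 2 of the 4 lysates correlated at r = 0.63 to 0.69, a description over genes, which are not replicates. In 3812 genes (27.3%) all 4 lysates were higher in medium, and in 3759 genes (26.9%) all 4 were lower. The lysates numbered 1 alone gave 2253 rises and 2224 falls, and those numbered 2 alone 2219 and 2478. Among the genes given below with their value in each of the 8 libraries, medium and input overlapped for Grin1, Dync1h1, Map1b and Setd2 and for no other. Most of these genes were named for a large change or a small adjusted p, which favours genes without overlap. The share of all genes without overlap is not given here, so this count does not describe genes at large.

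The largest rises held membrane proteins, enzymes and secreted factors of several kinds. Ppap2b (also Plpp3, a lipid phosphate phosphatase of the plasma membrane; chromosome 4, 105157347 to 105232764) held 343 and 394 CPM in KO medium and 401 and 425 CPM in WT medium, against 200 and 152 CPM in KO input and 210 and 136 CPM in WT input. All 4 medium libraries lay above all 4 input libraries, and the log2 change was 1.19 ± 0.12 (SE, 4 lysates; adjusted p = 2.13e-06 by edgeR). Cadm2, a synaptic cell adhesion molecule, held 259 and 209 CPM in KO medium and 339 and 342 CPM in WT medium, against 197 and 67.6 CPM in KO input and 166 and 108 CPM in WT input. Its groups did not overlap either (1.17 ± 0.19, adjusted p = 0.000137 by edgeR), although the KO 1 lysate moved least.

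Other membrane-linked genes moved the same way. Atp1b2, the beta-2 subunit of the sodium pump and a glial adhesion molecule, held 1160 and 1340 CPM in KO medium and 1300 and 1450 CPM in WT medium, against 718 and 615 CPM in KO input and 719 and 463 CPM in WT input (1.10 ± 0.13). Marcks, an actin-binding substrate of protein kinase C, held 233 and 264 CPM in KO medium and 231 and 279 CPM in WT medium, against 122 and 104 CPM in KO input and 125 and 149 CPM in WT input (1.02 ± 0.10). Nog, a secreted antagonist of bone morphogenetic proteins, stood at 1.04 ± 0.14, and Acvr1, a receptor of that family, at 1.04 ± 0.12. Tymp (thymidine phosphorylase, 1.18 ± 0.13), Pter (1.14 ± 0.21), Kantr (1.02 ± 0.17) and Asphd1 (1.01 ± 0.20) completed the 10 largest rises. A rise in 4 of 4 lysates and an adjusted p under 0.05 were conditions for this ranking, so neither is a separate result. The adjusted p of the 10 was at most 0.000598 by edgeR.

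**Figure D1:**
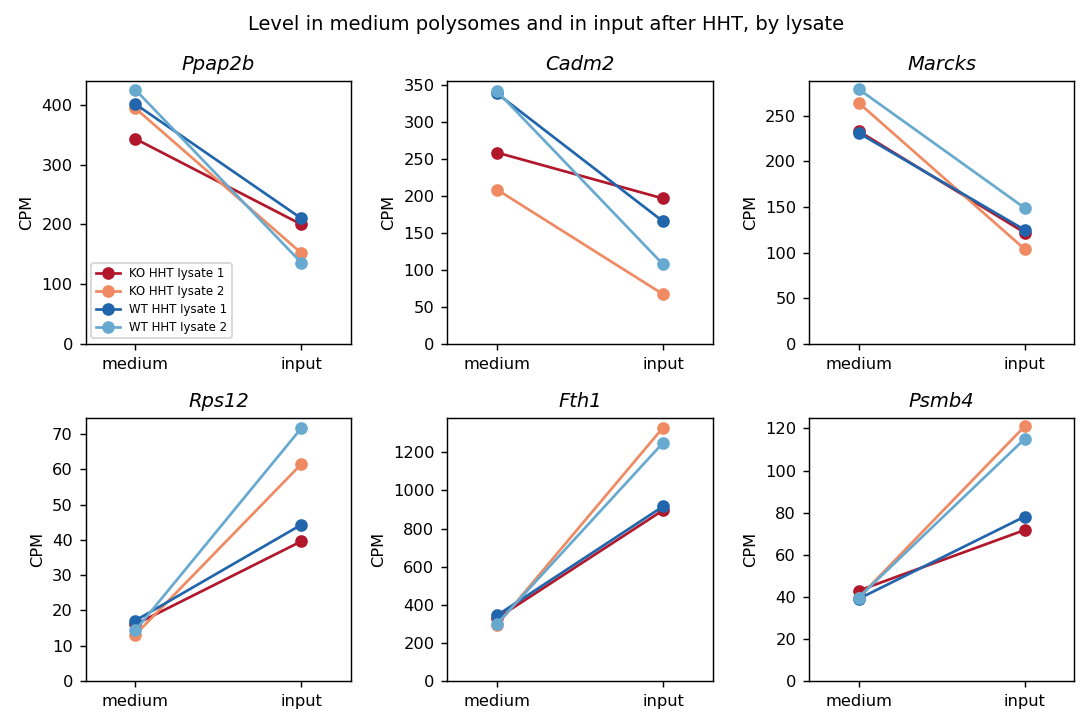
CPM (scaled share of a library's counts) of 6 genes in medium and in input after HHT, with a line joining the 2 libraries of a lysate and a linear axis from 0. Ppap2b, Cadm2 and Marcks are higher in medium in all 4 lysates (Marcks 231 to 279 CPM in medium, 104 to 149 CPM in input), and Rps12, Fth1 and Psmb4 are lower in medium in all 4 (Psmb4 39 to 42.9 CPM in medium, 71.7 to 121 CPM in input).

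The largest falls held ribosomal protein mRNAs, noncoding RNAs and ferritin. Rps12, a small-subunit protein, held 16 and 13.1 CPM in KO medium and 17.1 and 14.3 CPM in WT medium, against 39.6 and 61.5 CPM in KO input and 44.3 and 71.7 CPM in WT input (-1.82 ± 0.16, adjusted p = 4.21e-07 by edgeR). Medium varied little between lysates while input was higher in the lysates numbered 2. Rps29 (-1.77 ± 0.15), Rps14 (-1.65 ± 0.12) and Rpl14 (-1.64 ± 0.14) also fell. The pseudogene Rpl14-ps1 (-2.21 ± 0.19) can share reads with Rpl14, so neither value is certain. Rpph1, the RNA of ribonuclease P and not an mRNA, held 0.875 and 0.358 CPM in KO medium and 1.53 and 0.697 CPM in WT medium, against 7.75 and 11 CPM in KO input and 9.67 and 10.8 CPM in WT input (-3.52 ± 0.27). Malat1, a nuclear long noncoding RNA, stood at -1.89 ± 0.17, and the chemokine Cxcl1 at -1.68 ± 0.18. Cdr1 (-1.69 ± 0.25) overlaps a circular antisense RNA, and no source used here says whether counting took account of strand.

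**Figure D2:**
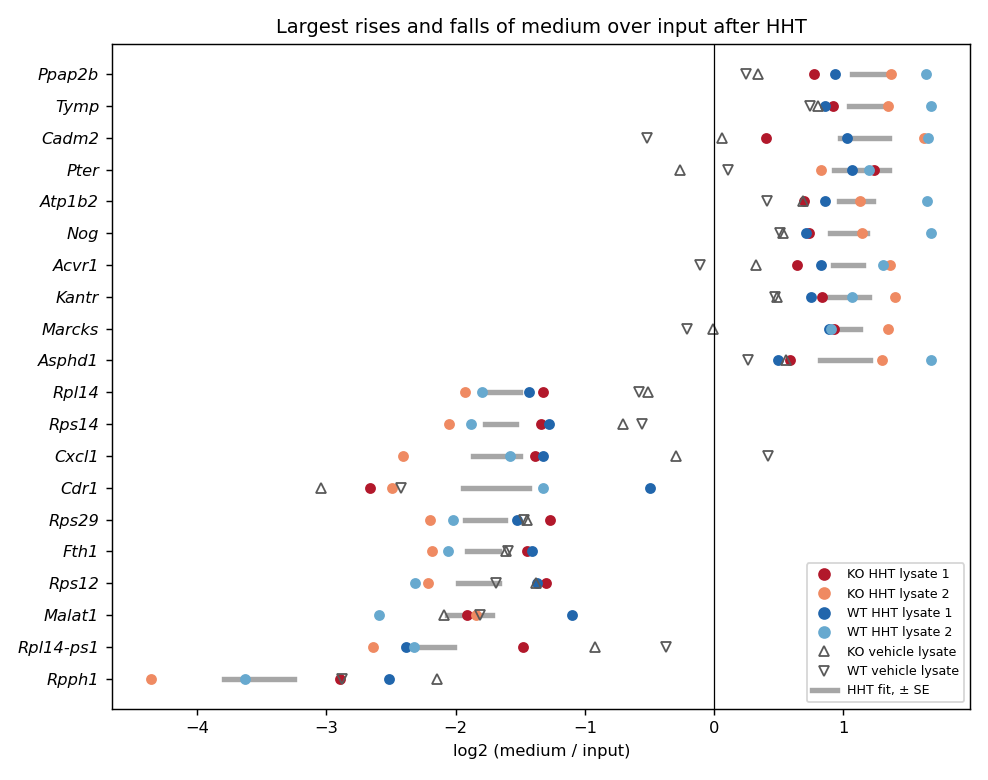
The log2 ratio of medium to input for the 10 largest rises and the 10 largest falls after HHT, with 1 filled point per HHT lysate, open triangles for the 2 vehicle lysates and a grey bar for the fitted change ± SE. Genes were eligible only with all HHT lysates on 1 side of 0, so the HHT points of a gene share their sign by choice. Vehicle points were not part of that choice, and Cxcl1, at -1.68 after HHT, has them on both sides of 0.

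All 79 measured genes of cytosolic ribosomal proteins fell, set against 20.8% of all genes. Their median was -1.34 and their range -1.82 to -0.56. By lysate the median was -1.02 and -1.59 in KO and -1.09 and -1.61 in WT. In vehicle slices the median was -0.50 in the KO lysate and -0.43 in the WT lysate, with 49 of 79 called lower where 14.8% of all genes were. The fall was larger after HHT than in vehicle in 65 of 79 members by a test of the difference (HHT minus vehicle, 4 lysates against 2), which called 15.9% of all genes lower, and the median difference was -0.86. Rpl3, a core large-subunit protein, shows a member for which it was not: 148 and 148 CPM in KO medium and 147 and 142 CPM in WT medium stood against 325 and 435 CPM in KO input and 325 and 418 CPM in WT input (-1.35 ± 0.10), beside -1.09 ± 0.12 in vehicle (difference -0.26, adjusted p = 0.212 by edgeR). For Rps3a1 the values were -1.61 ± 0.11 after HHT and -0.52 ± 0.15 in vehicle (difference -1.09, adjusted p = 0.000168 by edgeR).

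Ribosomal protein mRNAs are known for a run of pyrimidines at the 5′ end, through which their translation follows growth signals. For 4 members a pyrimidine run near the annotated start is shown. Their medium to input changes were -1.82 for Rps12, -1.64 for Rpl14 and -1.63 for Rpl26 and Rpl37. Counted from the annotated start, the run begins at base 8 in Rps12, -8 in Rpl14, 23 in Rpl26 and 28 in Rpl37. It is therefore not shown to be the run at the 5′ end. Each stretch has 30 bases (RefSeq promoter table, GRCm38.p6, 5′ to 3′ on the gene's strand), with the run in capitals.
Rps12, chr10:23787180-23787209, minus strand: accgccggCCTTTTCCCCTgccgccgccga
Rpl14, chr9:120571501-120571530, plus strand: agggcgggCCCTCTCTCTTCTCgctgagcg
Rpl26, chr11:68901581-68901610, plus strand: gtgtagttCTCTTTCCTTTTgcggccatcg
Rpl37, chr15:5116633-5116662, plus strand: cgggggtgCTTTCTCTTCCggtctctttgg
A run of at least 8 bases of C or T that begins with C was looked for from 10 bases before to 40 after the annotated start, using the first entry of each gene. It was found in 32 of 58 ribosomal protein genes with an entry (55.2%) and in 1457 of 10917 of all genes with one (13.3%). On the opposite strand the shares were 6.9% and 16.4%. The medium to input median was -1.38 with the run and -1.26 without it among the 58, and 0.03 with it and -0.01 without it among the 10859 other genes. Annotated starts can be off by several bases, and no match says only that these letters are not in this window.

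Translation factors were mixed, where 18.6% of all genes rose and 20.8% fell. The rises of both lists below were near the share over all genes. Of 37 initiation factor genes 21 fell and 6 rose, with a median of -0.34. Eif3e, a subunit of the factor that holds the small ribosomal subunit, fell by 1.31 (SE 0.11), and other subunits of that factor were Eif3h at -0.95 ± 0.09 and Eif3f at -0.82 ± 0.09. Pabpc1, which binds the poly(A) tail, held 108 and 97.8 CPM in KO medium and 115 and 111 CPM in WT medium, against 185 and 207 CPM in KO input and 184 and 231 CPM in WT input (-0.90 ± 0.09). In vehicle its ratio was lower still, at -1.42 ± 0.12 (difference 0.52, adjusted p = 0.0117 by edgeR). Of 18 elongation and termination factor genes 6 fell and 4 rose. Eef1a1, which brings aminoacyl-tRNA to the ribosome, held 1130 and 1120 CPM in KO medium and 1150 and 1120 CPM in WT medium, against 2060 and 2780 CPM in KO input and 2120 and 2600 CPM in WT input (-1.07 ± 0.09), with -1.22 ± 0.11 in vehicle. Eef2k, the kinase that slows elongation by phosphorylating eEF2, went the other way: it held 61.1 and 66.9 CPM in KO medium and 61.1 and 57.5 CPM in WT medium, against 44 and 41.1 CPM in KO input and 39.4 and 35.1 CPM in WT input (0.62 ± 0.09, adjusted p = 3e-05 by edgeR), beside -0.30 ± 0.12 in vehicle.

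Ferritin mRNAs were far lower in medium than in input with and without the drug. Ferritin stores iron, and both of its mRNAs carry an iron-responsive element in the 5′ UTR, a hairpin where iron regulatory proteins bind and hold translation back when iron is scarce. Fth1 (heavy chain) held 329 and 293 CPM in KO medium and 344 and 300 CPM in WT medium, against 896 and 1330 CPM in KO input and 916 and 1250 CPM in WT input (-1.79 ± 0.12), beside -1.6 ± 0.16 in vehicle. Ftl1 (light chain) held 94.5 and 81.6 CPM in KO medium and 94 and 82.9 CPM in WT medium, against 228 and 336 CPM in KO input and 213 and 282 CPM in WT input (-1.57 ± 0.12), beside -1.51 ± 0.16 in vehicle. Neither differed between HHT and vehicle past 0.05 (difference -0.18, SE 0.19, for Fth1 and -0.06, SE 0.19, for Ftl1). The element of both, and that of 1 other gene known to carry one, are shown as 30 bases each with the loop in capitals (GENCODE M21 transcripts on GRCm38, sense strand).
Fth1, chromosome 19, plus strand: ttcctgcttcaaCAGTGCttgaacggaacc
Ftl1, chromosome 7, minus strand: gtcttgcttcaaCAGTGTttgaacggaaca
Slc40a1, chromosome 1, minus strand: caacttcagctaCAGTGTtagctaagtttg
The search asked for CAGTGN with N other than G, a stem of 5 paired bases around it and a C before the stem, on the transcript's own strand. It matched 8 of 13508 5′ UTRs (0.0592%), while CAGTG alone was in 24.3%. Slc40a1, the iron exporter, stood at -0.53 ± 0.19 (adjusted p = 0.0353 by edgeR). Other matches were Nasp at -0.39 (adjusted p = 0.0209 by edgeR), Ppp1r1b at 0.73 (adjusted p = 6.21e-06), Ecd at 0.15 (adjusted p = 0.193) and Serpina3g at 0.13 (adjusted p = 0.704), so a match by letters went with changes in either direction. Of 18 iron-handling genes 7 fell and 2 rose (median -0.30), where 18.6% of all genes rose and 20.8% fell. Without KO HHT 1, WT HHT 1 or WT HHT 2 the rises numbered 0. Selenoprotein mRNAs read a stop codon as selenocysteine. Of 18 such genes 10 fell and 0 rose (median -0.54), read against the same shares of all genes. Among them were Sepw1 at -1.61 ± 0.12 and the lipid peroxidase Gpx4 at -1.22 ± 0.12.

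Several groups of housekeeping genes, most with short coding sequences, fell in medium after HHT, while their medians in vehicle lay above 0. Of 76 nuclear-encoded respiratory chain genes 74 fell and 0 rose, with a median of -0.89 (KO lysates -0.55 and -1.16, WT lysates -0.69 and -1.04). In vehicle their medians were 0.18 in KO and 0.38 in WT. By the test of the difference 65 of the 76 were lower after HHT, where 15.9% of all genes were. Cox5b, a subunit of cytochrome oxidase, held 76.1 and 71.9 CPM in KO medium and 65.7 and 70.1 CPM in WT medium, against 132 and 205 CPM in KO input and 133 and 159 CPM in WT input (-1.13 ± 0.10). Among 77 mitochondrial ribosomal proteins 62 fell and 0 rose (median -0.58; vehicle 0.49). Proteasome subunits, 32 genes, showed 25 falls, where 20.8% of all genes fell, and 3 rises, against 1 rise without KO HHT 2 (median -0.52; vehicle 0.38). Psmb4, a subunit of the catalytic core, held 42.9 and 39.5 CPM in KO medium and 39 and 39.6 CPM in WT medium, against 71.7 and 121 CPM in KO input and 78.1 and 115 CPM in WT input (-1.23 ± 0.12). In vehicle it held 139 CPM in KO medium and 173 CPM in WT medium, against 84.6 CPM in KO input and 85.7 CPM in WT input (0.86 ± 0.16), so the ratio changed sign between treatments (difference -2.09 ± 0.19, adjusted p = 4.59e-06 by edgeR).

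Glycolysis, chaperones and histones gave smaller groups, read against 18.6% of all genes higher and 20.8% lower. Of 16 glycolytic enzyme genes 9 fell and 2 rose (median -0.26), with Tpi1 at -0.83 ± 0.10 after HHT and 0.72 ± 0.13 in vehicle and Gapdh at -0.63 ± 0.09 and -0.08 ± 0.12. Cytosolic chaperones, 25 genes, had 15 falls and 4 rises (median -0.32), among them Cct8, a subunit of the CCT folding chamber, at -0.98 ± 0.09. Their rises numbered 1 without KO HHT 2, 1 without WT HHT 1 and 2 with no lysate term. Of 15 tubulin and actin genes 8 fell and 0 rose. Genes of replication-independent or polyadenylated histone mRNAs, 14 tested, had 7 falls and 2 rises. H3f3b, which encodes histone H3.3, stood at -0.92 ± 0.11 after HHT and at 0.85 ± 0.15 in vehicle (difference -1.77, adjusted p = 7.49e-06 by edgeR). Genes of the endoplasmic reticulum translocon and folding machinery, 40 tested, had 18 falls and 3 rises, with 1 rise without KO HHT 2 and 0 with no lysate term (median -0.25), with the chaperone Hsp90b1 at -0.79 ± 0.09 and -1.24 ± 0.14 in vehicle.

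A list of 30 known long noncoding RNAs and snoRNA host transcripts had 19 falls and 2 rises (median -0.96), where 18.6% of all genes rose and 20.8% fell. Noncoding genes as a class did not share this level: of 294 annotated as long noncoding 49 were lower and 37 higher, with a median of 0.02, beside -0.01 over protein-coding genes. Rian, an imprinted host of small nucleolar RNAs, held 95.4 and 89.4 CPM in KO medium and 107 and 102 CPM in WT medium, against 245 and 300 CPM in KO input and 253 and 338 CPM in WT input (-1.52 ± 0.09). Its neighbour Meg3 stood at -1.48 ± 0.12. Bc1, a short neuronal RNA made by RNA polymerase III, was at 0.584 and 0.269 CPM in KO medium and 0.613 and 0.435 CPM in WT medium, against 6.85 and 8.5 CPM in KO input and 8.49 and 11.5 CPM in WT input (-4.19 ± 0.29). In vehicle the 3 stood at -1.65 ± 0.13, -1.72 ± 0.16 and -3.64 ± 0.45, and the list's median was -0.81. Among the list's transcripts of at least 5 CPM 7 fell, with a median of -0.56. How many of the 30 reached that level is not given here, so this count cannot be read as a share.

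Glutamate receptor and cell adhesion genes had more rises than the 18.6% of all genes and few falls or none. Of 44 cell adhesion genes 25 rose and 0 fell (median 0.33; KO lysates 0.15 and 0.52, WT lysates 0.28 and 0.55), beside a vehicle median of -0.21. Besides Cadm2 they included the presynaptic organiser Nrxn2 at 0.57 ± 0.09 and its partner Nlgn2 at 0.58 ± 0.10. Of 24 glutamate receptor genes 14 rose and 1 fell (median 0.39; vehicle -0.17). Grin1, the obligate NMDA receptor subunit, held 1330 and 1130 CPM in KO medium and 1220 and 757 CPM in WT medium, against 963 and 599 CPM in KO input and 857 and 361 CPM in WT input (0.73 ± 0.11). Groups overlapped, since the WT 2 medium library lay below 2 of the input libraries, yet medium was the higher one in 4 of 4 lysates. The AMPA receptor subunits split, with Gria1 at 0.38 ± 0.08 (adjusted p = 0.00186 by edgeR) and Gria4 at -0.50 ± 0.13 (adjusted p = 0.00556), the 1 fall of the list, which was not called without WT HHT 2.

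Among channels and pumps the calls were mostly rises, read against 18.6% of all genes. Of 30 pore subunits of voltage-gated channels 10 rose and 0 fell (median 0.27; vehicle -0.26), led by potassium channels such as Kcnc2 at 0.63 ± 0.10 and Kcnc4 at 0.49 ± 0.08. Of 16 ion pump ATPases 8 rose and 1 fell (median 0.29; vehicle -0.29). Atp2a2, the calcium pump of the endoplasmic reticulum, held 1500 and 1130 CPM in KO medium and 1600 and 1270 CPM in WT medium, against 1010 and 456 CPM in KO input and 1040 and 516 CPM in WT input (0.93 ± 0.13). None of 12 GABA-A receptor genes rose and 3 fell (median -0.12; vehicle -0.47), a share of falls close to the 20.8% of all genes, and 6 fell by total counts. In fits with no lysate term the rises numbered 3 for cell adhesion, 6 for glutamate receptors, 4 for channels and 2 for pumps, so these counts rest on the pairing that the protocol gives. Without the KO HHT 2 lysate 9 glutamate receptor genes rose, and without KO HHT 1 16 channel genes did.

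**Figure D3:**
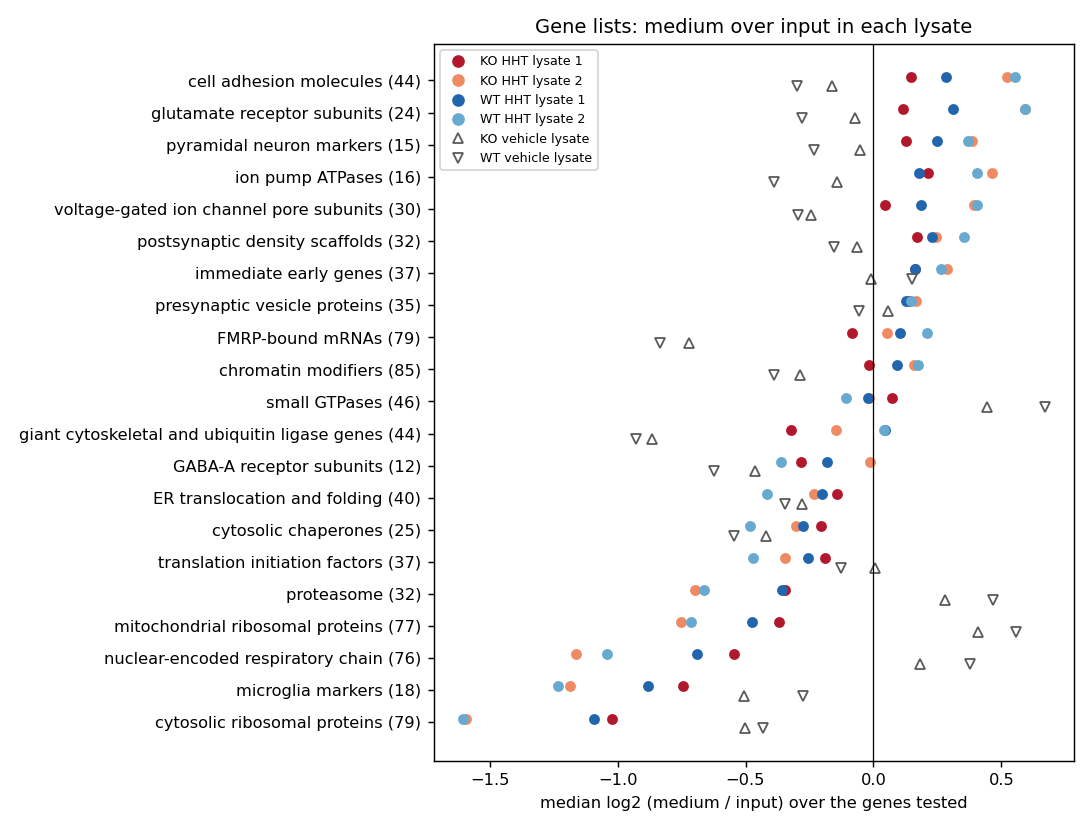
Median log2 ratio of medium to input for 21 gene lists, with the number of genes tested in brackets, filled points for the 4 HHT lysates and open triangles for the 2 vehicle lysates. Cytosolic ribosomal proteins lie lowest in all 4 HHT lysates, and the respiratory chain, mitochondrial ribosomal proteins and proteasome lie below 0 in all 4 HHT lysates and above 0 in both vehicle lysates.

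Postsynaptic scaffold genes had rises and no falls, and presynaptic genes had both, read against 18.6% of all genes higher and 20.8% lower. Of 32 postsynaptic density genes 19 rose and 0 fell (median 0.25; vehicle -0.11). Homer1, a scaffold for metabotropic receptors, held 208 and 191 CPM in KO medium and 234 and 248 CPM in WT medium, against 135 and 88.1 CPM in KO input and 143 and 137 CPM in WT input (0.82 ± 0.11). Camk2d, a calcium/calmodulin kinase subunit, stood at 0.70 ± 0.08, while Camk2a, a dendritic mRNA and FMRP ligand, stood at -0.02 ± 0.09 (adjusted p = 0.846 by edgeR). Of 35 presynaptic genes 17 rose and 5 fell (11 and 3 with no lysate term), with the vesicle protein Sv2a at 0.84 ± 0.10. Of 40 secreted and granule proteins 12 rose and 12 fell. Pcsk2, a convertase that processes neuropeptides, held 923 and 809 CPM in KO medium and 905 and 715 CPM in WT medium, against 604 and 356 CPM in KO input and 566 and 329 CPM in WT input (0.89 ± 0.09). Cst3, the secreted protease inhibitor cystatin C, went down, with 147 and 138 CPM in KO medium and 150 and 117 CPM in WT medium, against 308 and 443 CPM in KO input and 320 and 391 CPM in WT input (-1.41 ± 0.12).

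Immediate early genes, which neurons and glia induce within minutes of stimulation or slicing, rose in 16 of 37 cases and fell in 6 (median 0.21; vehicle 0.03). Dusp6, a phosphatase of MAP kinases, stood at 0.74 ± 0.08, and the transcription factor subunits Junb and Fosb at 0.67 ± 0.08 and 0.68 ± 0.08. The falls numbered 3 without KO HHT 2 and 3 without WT HHT 2. Small GTPases had 13 rises and 14 falls among 46 genes and a median of -0.01, although in vehicle 34 of the 46 were higher in medium where 17% of all genes were. Rab10, a GTPase of vesicle transport, was among those that rose both after HHT (0.97 ± 0.11) and in vehicle (0.68 ± 0.14). Chromatin modifiers, 85 genes, had 23 rises and 6 falls (median 0.05), and splicing factors, 68 genes, had 17 rises and 21 falls (median -0.04). Over all genes 18.6% rose and 20.8% fell after HHT. Their members pulled apart, with the histone demethylase Kdm4b at 0.61 ± 0.09 and the deacetylase Hdac1 at -0.78 ± 0.13.

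FMRP-bound mRNAs, a selection of 79 measured genes from published brain crosslinking, were divided between directions. In medium against input 25 rose and 12 fell, where 18.6% of all genes rose and 20.8% fell. Their medians were -0.08 and 0.05 in the KO lysates and 0.10 and 0.21 in the WT lysates. The rises numbered 15 without KO HHT 2, 15 without WT HHT 2 and 9 with no lysate term. In vehicle 55 of the 79 were lower in medium and 4 higher, where 14.8% of all genes were lower and 17% higher. Their vehicle median was -0.76. By the test of the difference 57 were higher after HHT than in vehicle, where 13.4% of all genes were. Heavy polysomes of the same lysates held more of them than medium did, with 74 of 79 higher in heavy against 22.6% of all genes (median 1.28). Their coding sequences are long, with a median of 2055 codons against 474 over all matched genes.

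Genes of giant cytoskeletal proteins and ubiquitin ligases, with a median of 4149.5 codons, showed this most fully. Of 44, 7 rose and 12 fell in medium against input (median -0.07, vehicle -0.89), where 18.6% of all genes rose and 20.8% fell. All 44 were higher in heavy than in medium (median 1.76), where 22.6% of all genes were. The 7 rises became 3 without WT HHT 2 and 3 with no lysate term. Dync1h1, the heavy chain of the dynein motor, held 3230 and 3670 CPM in KO heavy and 3750 and 3550 CPM in WT heavy, against 444 and 203 CPM in KO medium and 576 and 292 CPM in WT medium, and 952 and 692 CPM in KO input and 978 and 550 CPM in WT input. Its log2 change was -1.11 ± 0.17 in medium against input and 3.33 ± 0.18 in heavy against medium. Ubr4 and Birc6, both ubiquitin ligases, stood at -1.22 ± 0.12 and -1.03 ± 0.14 in medium against input and at 3.23 ± 0.12 and 3.26 ± 0.14 in heavy against medium. At the opposite end of heavy against medium stood Ptms (-1.51 ± 0.10), a small acidic protein related to prothymosin, which had risen in medium over input by 0.80 ± 0.10. In heavy against medium 3153 genes were higher and 2863 (20.5%) lower, 43.1% in all. By total counts 1968 were higher and 4907 lower, so 28.6% of calls were higher in place of 52.4%, as the median of all genes stood at -0.20 by total counts and -0.02 by TMM.

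The medium to input ratio itself changed with the drug. By the test of the difference 1872 genes were higher and 2221 lower after HHT than in vehicle, 29.3% in all. In the 5 largest positive differences the HHT ratio lay between -0.09 and 0.55 and the vehicle ratio between -2.25 and -1.24. Map1b, a microtubule-associated protein and FMRP target, held 843 and 584 CPM in KO medium and 1110 and 823 CPM in WT medium after HHT, against 1170 and 557 CPM in KO input and 1070 and 800 CPM in WT input (-0.09 ± 0.16). In vehicle it held 304 CPM in KO medium and 269 CPM in WT medium, against 1280 CPM in KO input and 1420 CPM in WT input (-2.25 ± 0.23). Its difference was 2.16 ± 0.27 (adjusted p = 1.77e-05 by edgeR). Zc3h13 (2.28 ± 0.28), the core spliceosome protein Prpf8 (2.21 ± 0.25), Map1a (1.93 ± 0.19) and the insulin signalling adaptor Irs2 (1.79 ± 0.20) made up the rest of the 5. After HHT Map1a stood at 0.31 ± 0.11 in medium against input (adjusted p = 0.0349 by edgeR), and the adjusted p was 0.151 without WT HHT 2 and 0.0671 without KO HHT 2. The 5 largest negative differences were those of the interferon-induced Ifitm2 (-2.18 ± 0.32), of Psmb4, of the respiratory chain genes Ndufab1 (-2.06 ± 0.19) and Ndufb4 (-2.01 ± 0.26) and of the fatty acid carrier Fabp5, with -1.18 ± 0.13 after HHT and 0.82 ± 0.16 in vehicle. Vehicle lacks replicate lysates within a genotype. With no lysate term 990 genes were higher and 1425 lower.

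Markers of cell types did not move as one, read against 18.6% of all genes higher and 20.8% lower. All 18 microglia markers were measured, 16 fell and 0 rose (median -1.01; vehicle -0.44), with the protease Ctss at -1.31 ± 0.15 and the complement gene C1qc at -1.18 ± 0.14. Their summed level was 143 to 184 CPM in medium and 287 to 364 CPM in input. Vessel markers, 19 genes, had 8 falls (5 by DESeq2) and 0 rises, and summed to between 92.7 and 124 CPM in medium and between 128 and 148 CPM in input. Astrocyte markers, 18 genes, had 7 rises and 8 falls. Gfap, the intermediate filament of reactive astrocytes, held 96.5 and 117 CPM in KO medium and 107 and 104 CPM in WT medium, against 161 and 260 CPM in KO input and 174 and 232 CPM in WT input (-0.94 ± 0.09). Sox9, the astrocyte transcription factor, held 124 and 135 CPM in KO medium and 135 and 147 CPM in WT medium, against 82.6 and 69.1 CPM in KO input and 85.3 and 66.8 CPM in WT input (0.84 ± 0.10). Of 18 oligodendrocyte markers 3 rose and 8 fell (median -0.18, range -0.72 to 0.83). Cnp, a myelin enzyme, stood at the top of that range with 0.83 ± 0.08. Pyramidal neuron markers had 8 rises and 2 falls among 15 (median 0.34). Medium and input of a pair came from 1 lysate. The 2 haemoglobin genes in the table fell, Hba-a2 at -1.45 ± 0.31 and Hbb-bs at -1.62 ± 0.28, and Hba-a2, whose near-identical copy can share its reads, lost the call without KO HHT 2 (adjusted p = 0.0692 by edgeR).

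The remaining lists had calls in both directions, read against 18.6% of all genes higher and 20.8% lower. Of 35 lysosomal genes 20 fell and 5 rose (3 rises with no lysate term; median -0.32; vehicle -0.34), and the members ran from the hydrolase Ctss to Scarb2, a receptor that carries glucocerebrosidase, at 0.96 ± 0.12. Of 26 kinesin and dynein motor genes 5 fell (3 by DESeq2 and 3 without WT HHT 2) and 4 rose, near the shares over all genes, with the light chain Dynlrb1 at -1.08 ± 0.11. Of 27 genes with upstream reading frames or roles in stress 7 fell (4 without KO HHT 2) and 5 rose, again near those shares, among them Azin1, an antizyme inhibitor, at 0.72 ± 0.10 and Ifrd1 at -0.66 ± 0.09 (0.57 in vehicle). Autism risk genes had 21 rises (13 with no lysate term) and 7 falls among 63, with the kinase Dyrk1a at 0.58 ± 0.08.

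The last marker lists are also read against 18.6% of all genes higher and 20.8% lower, and several of their counts were near those shares. Markers of inhibitory neurons had 3 rises and 6 falls among 18. The GABA-synthesising enzyme Gad1 stood at 0.63 ± 0.08 and the neuropeptide Npy at -1.21 ± 0.12. Oligodendrocyte precursor markers had 1 rise and 1 fall among 10, choroid plexus and ependymal markers 2 rises and 5 falls among 12, and thalamus and striatum markers 7 rises and 1 fall among 18. Ttr, the choroid plexus transporter of thyroid hormone, stood at -0.94 ± 0.14.

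The KO and WT ratios were set against each other to ask whether FMRP alters the medium to input ratio. No gene passed for the KO minus WT difference by edgeR, with 326 genes at unadjusted p under 0.05, and DESeq2 called 0, with 70 at unadjusted p under 0.05. Without KO HHT 2 1 gene passed, and 10 genes passed (1 higher, 9 lower) with a replicate block shared by the genotypes, whose numbers are not stated to pair them. The median standard error of this difference was 0.25, with 2 lysates per genotype, so differences several times that size can go uncalled. Cdr1 was not called at a difference of -1.74 ± 0.34, with log2 ratios of -2.66 and -2.49 in KO lysates and -0.50 and -1.32 in WT lysates. In the same fit KO alone had 1196 rises (8.56%) and 1436 falls (10.3%), and WT alone 1190 (8.52%) and 1519 (10.9%). Fmr1 itself stood at -0.23 ± 0.14 in medium against input (adjusted p = 0.203 by edgeR). Its paralog Fxr1 held 21.5 and 20.3 CPM in KO medium and 23.2 and 22.8 CPM in WT medium, against 37.8 and 34.4 CPM in KO input and 38.8 and 45.5 CPM in WT input (-0.83 ± 0.11). Setd2, a histone H3 lysine methyltransferase, held 42.1 and 37.6 CPM in KO medium and 58.2 and 58 CPM in WT medium, against 59.5 and 42.6 CPM in KO input and 50 and 50.3 CPM in WT input. Its KO minus WT difference was -0.56 (adjusted p = 1 by edgeR). The median difference was -0.28 over the 44 giant genes, -0.16 over the FMRP-bound mRNAs and -0.01 over all genes. These 2 lists share members, among them Dync1h1, and both hold long genes. Over all matched genes above 3000 codons the medium to input medians were -0.29 and -0.15 in KO lysates and 0.02 and 0.004 in WT lysates. At 2001 to 3000 codons they were -0.03 and 0.10 in KO and 0.12 and 0.20 in WT. Whether FMRP binding adds to coding length here was not tested.

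Coding length went with the ratio in different ways after HHT and in vehicle. Among 13508 genes matched to a coding sequence, the HHT medians were -0.43 for up to 100 codons (265 genes), -0.32 for 101 to 200, -0.13 for 201 to 300 and -0.04 for 301 to 500. They turned positive at 501 to 750 codons (0.03), were highest at 1001 to 1500 (0.12) and fell below 0 again above 3000 (-0.09, 104 genes). In vehicle the medians were -0.10 up to 100 codons, 0.26 at 101 to 200 and 0.29 at 201 to 300, and from there went down to -0.62 at 2001 to 3000. In heavy against medium they ran upward throughout, from -0.53 for up to 100 codons to 1.24 above 3000. Spearman's rank correlation with coding length across genes was 0.28 after HHT, -0.40 in vehicle and 0.64 in heavy against medium, each a description over genes, which are not replicates.

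**Figure D4:**
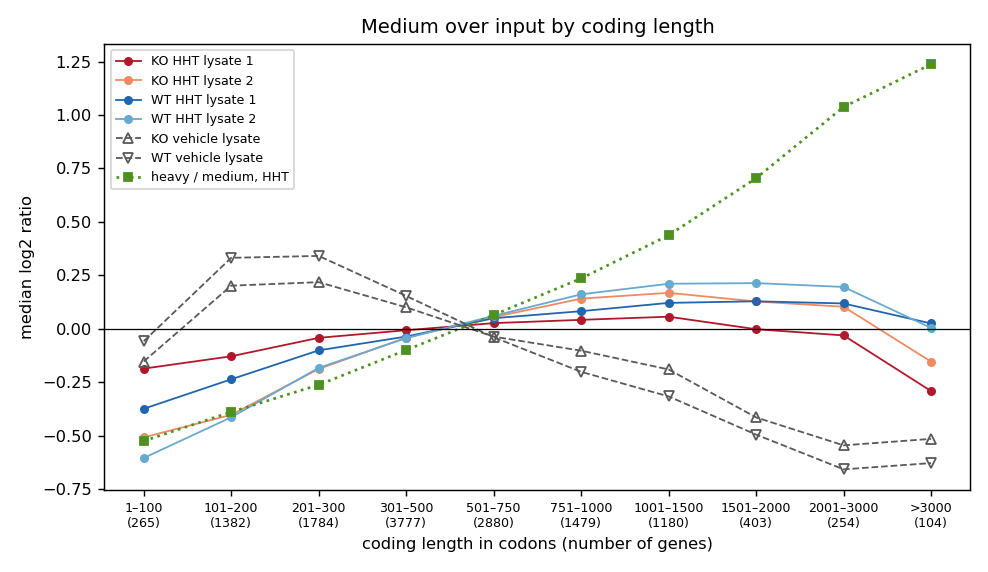
Median log2 ratio by coding length class (codons, with the number of genes), with 1 line per HHT lysate for medium over input, dashed lines for the 2 vehicle lysates and a dotted line for heavy over medium after HHT. HHT lines peak between 1001 and 2000 codons, vehicle lines go down from 0.34 in WT at 201 to 300 codons to -0.66 at 2001 to 3000, and heavy over medium climbs to 1.24.

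The length of the 5′ UTR, a property chosen after values had been seen, also went with the HHT ratio. Genes called higher had a median 5′ UTR of 320 nt, genes called lower 118 nt and genes not called 184.5 nt. By class the medians were -0.16 up to 50 nt, -0.21 at 51 to 100, -0.14 at 101 to 150, -0.03 at 151 to 200, 0.06 at 201 to 300, 0.13 at 301 to 500 and 0.24 above 500 nt. Above 500 nt 42.1% of 1449 genes were called higher and 7.59% lower, and at 51 to 100 nt 5.16% of 1977 were called higher and 35.9% lower. In vehicle the class medians lay between -0.02 and 0.08. The distance from up to 100 nt to above 500 nt was 0.42 (SD 0.12 over 4 lysates) after HHT and 0.06 in vehicle, and KO HHT 1 alone gave 0.30. Spearman's rank correlation was 0.38 after HHT, 0.01 in vehicle and -0.01 in heavy against medium.

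That order held within coding length classes up to 2000 codons. The median above 500 nt against that up to 100 nt was 0.03 against -0.56 at 1 to 200 codons, 0.24 against -0.27 at 201 to 500, 0.28 against -0.08 at 501 to 1000 and 0.24 against 0.05 at 1001 to 2000. Above 2000 codons it was -0.0035 against 0.024 (37 and 102 genes). The class above 500 nt was also the higher one in each of 3 GC classes of the coding sequence and of the 5′ UTR. Upstream ATGs did not mark the highest genes: above 500 nt the median was 0.44 in 69 genes without an ATG in the 5′ UTR and 0.23 in 1380 genes with 1 or more. Among the 10 largest rises Acvr1 (665 nt), Cadm2 (677 nt) and Ppap2b (478 nt) have long annotated 5′ UTRs and Tymp (64 nt) a short one. Fth1 fell, with 795 nt in the transcript model used, where the hairpin loop begins 669 nt from the 5′ end. These lengths are those of 1 annotated transcript per gene, and which transcript the slices held was not tested.

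**Figure D5:**
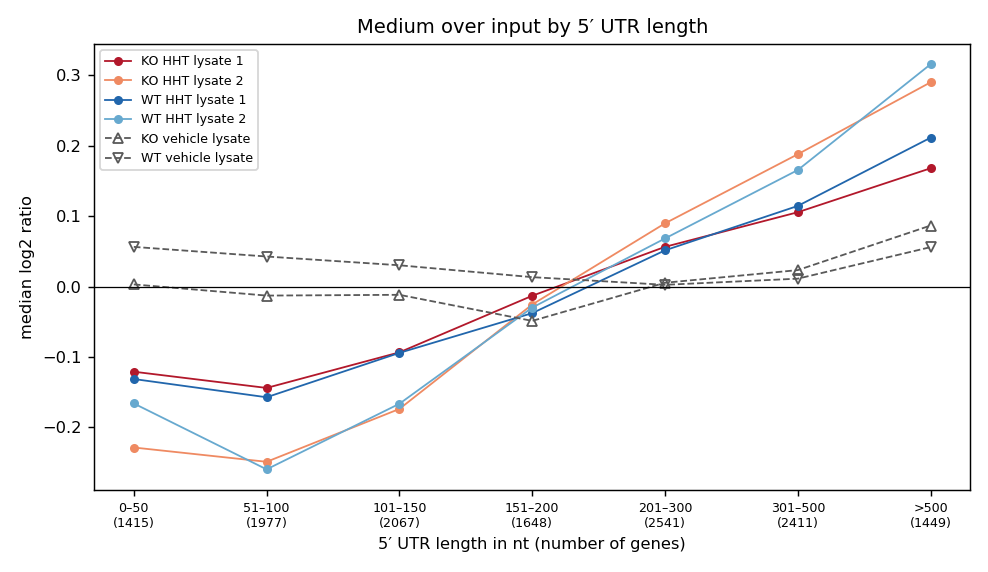
Median log2 ratio of medium to input by 5′ UTR length class (nt, with the number of genes), with 1 line per HHT lysate and dashed lines for the 2 vehicle lysates. All 4 HHT lines climb from below 0 to between 0.17 and 0.32 above 500 nt, and the vehicle lines stay between -0.05 and 0.09.

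A predicted hydrophobic segment, as in signal peptides and membrane spans, made a smaller difference. Genes with one (4877) had a median of 0.05 and genes without one (8631) a median of -0.04, a distance of 0.096 (SD 0.039 over 4 lysates), and in vehicle the medians were -0.05 and 0.07. Genes with the segment within the first 40 residues had 0.02, and those with it only later 0.06.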

How the data were processed

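Total RNA libraries of brain slices were read from a deposited table of estimated counts (expected counts) for 13973 genes and 18 libraries, in which 0 of 251514 values are whole. Per the submitters' processing notes the genome build was mm10 and the tools included RSEM 1.2.11, DESeq2 1.16.1, Bowtie2 2.1.0 and Trimmomatic 0.32. No order or role is given for them. A second deposited table holds a score that the authors call TPM. In it 10 of 18 columns sum to over what TPM allow, so it is called rescaled TPM. Its lowest value was at least 1.00 in vehicle and HHT replicate 1 libraries and at most 0.904 in HHT replicate 2 libraries. The names of both deposited tables speak of 2 batches, without saying which libraries formed them or whether values were adjusted, and replicate numbers are therefore shown apart.

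The rounded counts entered edgeR 4.0.16 under R 4.3.3 (TMM, low-count filter, quasi-likelihood F-test, 2-sided, Benjamini-Hochberg at 0.05). The 12 HHT libraries were fitted with a term per lysate, which left 6 residual degrees of freedom; the prior had 11.4. The genotype difference used genotype-specific fraction terms, and the HHT minus vehicle difference all 18 libraries. The lysate pairs are given by the protocol. Deviations of medium and input correlated at r = 0.21 in KO and 0.35 in WT. Equal numbers in KO and WT are not stated to share a preparation and were not paired. CPM are TMM-scaled, over 12 libraries for HHT values and over 18 for vehicle values, so levels were compared within a treatment. Per-lysate ratios use a prior count of 2. A simulation with known changes was used to test the fit.

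The table names genes by symbol. GENCODE M21 on GRCm38, which mm10 is, matched 13413 by symbol and 472 by a RefSeq synonym, and gave coordinates and 1 coding transcript for 13513 genes. A transcript marked as principal was taken first, then the longest coding sequence, then the longest transcript. Its 5′ UTR can therefore be longer than that of the mRNA in the slices. A hydrophobic segment was a Kyte-Doolittle mean of at least 1.6 over 19 residues. Mitochondrially encoded mRNAs (13 names) had 0 entries and were not analysed here.

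The members and the 43 gene lists were chosen with earlier results of these data known. Named were, for rises and for falls, up to 10 genes with the largest change (past 0.05, mean of at least 5 CPM, same direction in 4 of 4 lysates, no predicted gene models), up to 4 per list by adjusted p, up to 5 per direction for heavy against medium and for the drug difference, and Fmr1, Fxr1, Fxr2, Setd2, Map1b and Camk2a. The genes matched by the hairpin search, Rpl26, Rpl37, Gria1 and Gria4 were named after their values were seen. Lists were described by counts and medians, with no set test. Other fits tried were DESeq2 1.42.0, limma 3.58.1 on counts and on log2(rescaled TPM + 1), other scalings and filters, each lysate left out, each genotype or replicate number alone, and fits with other blocks or none. A few results are not reported here.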

Additional observations from a re-analysis of the deposited data

Results flagged for a closer look

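In 9 of 230 values screened over the 4 HHT lysates, 1 lysate stood far from the other 3, and chance flags about 1 group in 20. The values are log2 ratios of medium to input. KO HHT 2 was apart for Marcks (1.35, others 0.89 to 0.93), Azin1 (0.94, others 0.64 to 0.65) and the median of 2 blood cell genes (-2.59, others -0.73 to -0.52). KO HHT 1 was apart for Map1b (-0.48, others 0.04 to 0.07) and for the median of secreted and granule proteins (-0.0207, others 0.0771 to 0.0817). WT HHT 2 was apart for Dlg4 (0.66, others 0.38 to 0.42), Hnrnpa3 (-0.95, others -0.64 to -0.60), Junb (0.89, others 0.59 to 0.62) and Clic6 (0.97, others 0.52 to 0.58).

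Setd2 was lower in medium than in input in both KO lysates and higher in both WT lysates, with fitted KO minus WT difference -0.56, which did not pass in the edgeR test of the difference (adjusted p = 1).

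List medians of all 4 HHT lysates lay on 1 side of 0 and those of both vehicle lysates on the other in 10 lists, and the difference of these medians was not tested. After HHT the median was below 0 for the respiratory chain (-0.89; vehicle 0.18 in KO and 0.38 in WT), mitochondrial ribosomal proteins (-0.58; 0.41 and 0.56), the proteasome (-0.52; 0.28 and 0.47) and replication-independent histone genes (-0.46; 0.64 and 0.83). It was above 0 for glutamate receptors (0.39; vehicle -0.07 in KO and -0.28 in WT), pyramidal neuron markers (0.34; -0.05 and -0.23), cell adhesion molecules (0.33; -0.16 and -0.30), ion pumps (0.29; -0.14 and -0.39), ion channels (0.27; -0.24 and -0.30) and postsynaptic scaffolds (0.25; -0.06 and -0.15).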

How the results depend on the processing

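Leaving out each HHT lysate gave 4196 to 4809 genes for medium against input (1973 to 2284 higher, 2211 to 2525 lower), 3767 to 4127 for the drug difference (1728 to 2019 higher, 2039 to 2137 lower), 4759 to 5368 for heavy against medium (2621 to 2846 higher, 2138 to 2534 lower) and 0 to 1 for the genotype difference. KO lysates alone gave 2364 (1040 higher, 1324 lower) and WT lysates alone 2738 (1133 higher, 1605 lower), while replicate 1 lysates alone, as many libraries, gave 4477 and replicate 2 alone 4697; the cause was not tested. With no lysate block medium against input had 4243 calls and the drug difference 2415 (990 higher, 1425 lower). A replicate block shared by the genotypes, whose numbers are not stated to pair them, gave 10 genes for the genotype difference (1 higher, 9 lower) with KO and WT ratios of equal number correlating at r = 0.13. By total counts heavy against medium had 1968 higher and 4907 lower. The distance between 5′ UTR classes was 0.30 in KO HHT 1 alone. Of 3563 values of the 188 named genes under alternatives, 3482 kept direction and side of the threshold and 0 called ones reversed. Most of the 188 were named for a large change or a small adjusted p in the main fit of the same libraries. Their stability therefore says little about all 5501 calls. Of 61 lost calls 31 were in fits of 1 genotype, 17 without a lysate block and 6 without 1 lysate. Of 797 list medians under alternatives 31 changed sign. Counts limit precision at low levels: the SE was 0.29 for Bc1, against 0.09 for Eef1a1. Replicates are pools, vehicle has 1 lysate per genotype, and with 2 lysates a side the genotype difference had a median SE of 0.25.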
